A study of Mus musculus with 6 samples.

Results

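The SoxC genes *Sox4*, *Sox11* and *Sox12* were described from the accessible chromatin of mouse neural stem and progenitor cells (NSPCs), measured by ATAC-seq, which uses a transposase to tag open DNA. An interval of accessible chromatin was assigned to one of the 3 genes when its strongest summit, the point of highest fold enrichment, had that gene as the nearest protein-coding transcription start site (TSS), at most 50 kb away. By this rule, 40 of 190365 intervals in both lists were at the SoxC genes. They were 20 of 82885 intervals in parent NSPCs and 20 of 107480 intervals in ΔSRR2–18 NSPCs. Parent NSPCs (3 cultures, Clone 5B) were 129S1/Cast F1 Hybrid cells with an mCherry reporter at the 129 allele of *Sox2* and no deletion. ΔSRR2–18 NSPCs (3 cultures, Clone 47D) carried the same reporter and a homozygous deletion of SRR2–18, a cluster of *Sox2* enhancers. Both were derived from embryonic stem cells and kept in N2B27 medium with EGF and bFGF on poly-d-lysine and laminin. The deletion was thus represented by 1 clone, and clone and deletion cannot be told apart. The authors pooled the cultures of each genotype into 1 conservative peak list, so every value below lacks an error between cultures, and the genotypes are compared without a test.

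SoxC proteins are transcription factors with a high-mobility-group DNA-binding domain and a transactivation domain at the C terminus. They are known for acting after the SoxB1 factors, such as SOX2, in the neural lineage, where SOX4 and SOX11 activate genes of neuronal differentiation and SOX12 is a weaker activator with overlapping functions. All 3 genes consist of a single coding exon. In mm10, *Sox4* (ENSMUSG00000076431.4) lies at chr13:28948919-28953713, *Sox11* (ENSMUSG00000063632.6) at chr12:27334264-27342574 and *Sox12* (ENSMUSG00000051817.8) at chr2:152393611-152398063, all on the reverse strand. *Sox4* and *Sox11* stand alone: the nearest other protein-coding TSS was 696 kb away for *Sox4* (*Gm11361*) and 873 kb away for *Sox11* (*Cmpk2*). *Sox12* has close neighbours, with the TSS of *Zcchc3* at 17.0 kb and that of *Nrsn2* at 21.4 kb.

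The promoters are shown here with the strongest parent-only summit of *Sox4* and of *Sox11* and with summits chosen for their octamer or AP-1 matches, which the motif results below turn on. The 200 bases upstream of the RefSeq start (GRCm38.p6, 5′ to 3′ on the strand of the gene) follow, with the CCAAT box (CCAAT), the GC box (GGGCGG) and the octamer bound by POU factors (ATGCAAAT), searched on both strands, in capitals.
*Sox4*, chr13:28953700-28953899, reverse strand: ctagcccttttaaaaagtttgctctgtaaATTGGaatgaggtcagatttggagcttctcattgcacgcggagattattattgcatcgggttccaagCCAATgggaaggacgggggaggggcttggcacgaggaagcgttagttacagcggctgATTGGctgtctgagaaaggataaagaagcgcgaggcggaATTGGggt
*Sox11*, chr12:27342719-27342918, reverse strand: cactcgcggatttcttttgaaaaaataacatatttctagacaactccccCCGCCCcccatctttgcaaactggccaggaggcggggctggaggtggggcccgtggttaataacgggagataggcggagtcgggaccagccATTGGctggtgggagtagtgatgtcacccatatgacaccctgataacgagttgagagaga
*Sox12*, chr2:152398047-152398246, reverse strand: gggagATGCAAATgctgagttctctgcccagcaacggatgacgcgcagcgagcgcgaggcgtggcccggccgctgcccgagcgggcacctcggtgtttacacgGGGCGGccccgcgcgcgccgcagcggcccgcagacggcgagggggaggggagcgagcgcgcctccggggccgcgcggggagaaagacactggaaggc

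*Sox4* held 4 CCAAT boxes, *Sox11* held 1 CCAAT box and 1 GC box, and *Sox12* held 1 GC box and 1 octamer. Of 32851 RefSeq promoters of the same length, 29.3% held a CCAAT box, 31.0% a GC box and 1.38% the octamer. None of the 3 held the letters TATAAA, which were in 9.96% of promoters. GC content was 50.0% at *Sox4*, 54.0% at *Sox11* and 75.0% at *Sox12*, where 30 CpG dinucleotides stood against 10 and 9 in the others.

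The strongest parent-only summits (no overlap with a ΔSRR2–18 interval) of *Sox4* and *Sox11* are given next, with the *Sox4* summit that held octamers, on the forward strand of mm10 with the octamer in capitals.
*Sox4*, 11.4 kb downstream, chr13:28942229-28942329: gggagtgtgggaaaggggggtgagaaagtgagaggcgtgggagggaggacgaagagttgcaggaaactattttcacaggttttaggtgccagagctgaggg
*Sox4*, 35.2 kb upstream, chr13:28988851-28989001: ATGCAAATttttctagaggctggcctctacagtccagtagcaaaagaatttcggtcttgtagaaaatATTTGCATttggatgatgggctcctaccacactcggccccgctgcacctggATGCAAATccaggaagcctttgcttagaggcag
*Sox11*, 14.9 kb upstream, chr12:27357457-27357557: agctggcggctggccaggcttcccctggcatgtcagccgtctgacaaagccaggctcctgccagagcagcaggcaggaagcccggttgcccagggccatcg

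Deletion-only summits (no overlap with a parent interval) with a consensus of AP-1, the dimer of JUN and FOS proteins, follow on the forward strand. Capitals mark AP-1 (TGACTCA or TGAGTCA) and, at the first, also the TEAD consensus (CATTCCA).
*Sox4*, 35.7 kb downstream, chr13:28917977-28918127: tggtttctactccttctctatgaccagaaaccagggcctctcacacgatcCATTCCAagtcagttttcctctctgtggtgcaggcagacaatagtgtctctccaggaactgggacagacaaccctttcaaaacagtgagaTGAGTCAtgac
*Sox4*, 21.8 kb downstream, chr13:28931881-28932031: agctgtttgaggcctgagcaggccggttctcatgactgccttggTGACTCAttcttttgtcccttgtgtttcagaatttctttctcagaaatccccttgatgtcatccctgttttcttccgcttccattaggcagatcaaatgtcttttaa
*Sox11*, 47.9 kb upstream, chr12:27390415-27390565: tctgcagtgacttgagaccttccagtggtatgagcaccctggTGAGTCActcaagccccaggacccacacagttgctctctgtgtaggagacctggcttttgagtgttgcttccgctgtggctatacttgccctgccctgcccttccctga
*Sox11*, 32.5 kb upstream, chr12:27375012-27375162: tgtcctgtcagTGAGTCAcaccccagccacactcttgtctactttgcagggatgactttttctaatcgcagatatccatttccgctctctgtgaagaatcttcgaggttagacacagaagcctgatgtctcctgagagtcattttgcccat

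Each interval carries a fold enrichment, the reads at its summit over the local background that the peak caller MACS2 estimates around it, and a −log10 p from a Poisson model of the same 2 quantities. Both could therefore be solved for the summit reads, which are pileup heights rather than numbers of separate fragments. The lowest background was 38.8 reads for the parent and 19.7 for ΔSRR2–18 NSPCs, a ratio of 1.98 that was taken as the relative depth of the pooled libraries. The labels give one range of depth for all cultures, and what made the backgrounds differ was not tested. Parent reads are given as listed and, where genotypes are compared at equal depth, divided by this ratio, so every such value rests on it. All 7 NSPC marker genes examined (*Nes*, *Sox1*, *Sox2*, *Pax6*, *Vim*, *Fabp7* and *Msi1*) had an interval within 1 kb of a TSS in both lists. Of 5 neuronal markers, 3 had one in parent NSPCs and 4 in ΔSRR2–18 NSPCs, of 4 astrocyte markers 2 and 1, of 4 oligodendrocyte markers 2 and 2, of 4 pluripotency markers 1 and 1, and of 3 blood or microglia markers 2 and 1. Intervals within 1 kb of a TSS were common, with 12364 shared pairs, and the share over all genes was not counted. The blood or microglia genes with one were *Aif1* and *Csf1r* in parent and *Csf1r* in ΔSRR2–18 NSPCs. These counts therefore do not establish the cell type. An interval in these bulk samples does not tell more open chromatin per cell from more cells with open chromatin.

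All 3 SoxC genes had an interval within 1 kb of a TSS in both lists. Such intervals were common, with 12364 shared pairs within 1 kb of a protein-coding TSS. The share of the 21951 protein-coding genes with one was not counted. Between 10 and 50 kb from the TSS, 6 of 7 parent and 10 of 11 ΔSRR2–18 intervals were found in one list alone. Over all intervals at that distance, 59.1% and 66.3% were. Of the 20 intervals in each list, 10 were shared (an overlap of at least 1 bp) and 10 were not. *Sox4* had 7 parent and 5 ΔSRR2–18 intervals, of which 3 were shared, 4 parent-only and 2 deletion-only. *Sox11* had 7 and 10, of which 2 were shared, 5 parent-only and 8 deletion-only. *Sox12* had 6 and 5, of which 5 were shared, 1 parent-only and 0 deletion-only. Across each whole list, 52.3% of parent intervals and 63.1% of ΔSRR2–18 intervals had no overlap in the other, so the 50.0% at the SoxC genes together was near the background in the parent and below it in the ΔSRR2–18 list, with no test. The single genes stood on both sides of it: the unshared share was 57.1% and 40.0% at *Sox4*, 71.4% and 80.0% at *Sox11*, and 16.7% and 0% at *Sox12*. The genes are not alike in reach, since *Sox12* has coding neighbours at 17.0 and 21.4 kb. Intervals more than 10 kb away, where unshared ones are more common, could hardly be assigned to *Sox12*.

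**Figure D1:**
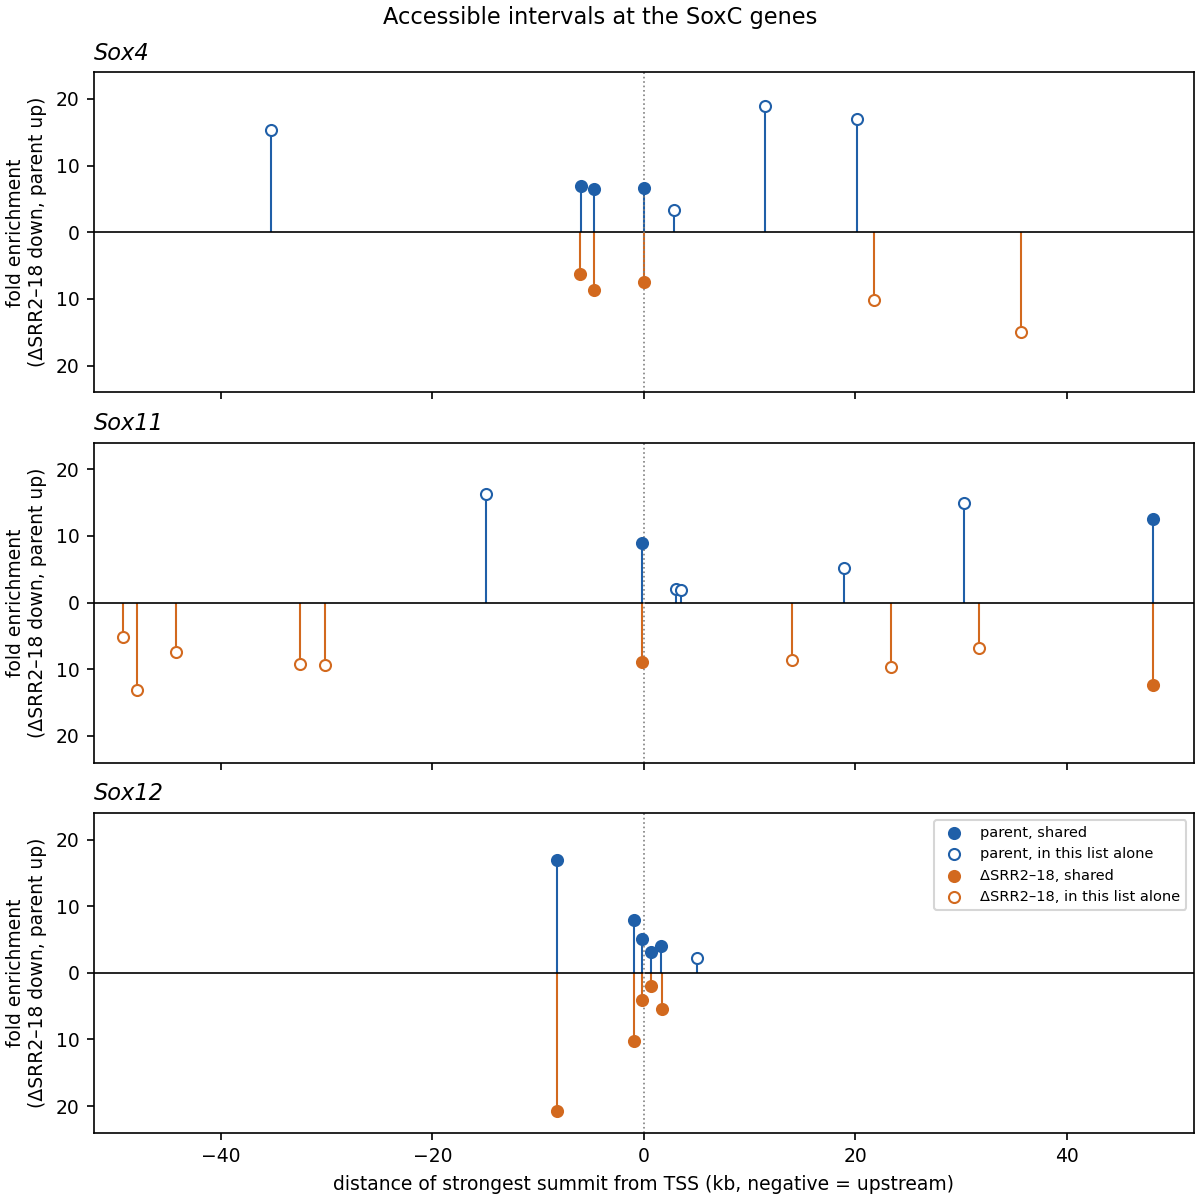
Strongest summit of each interval at the 3 genes by distance from the TSS (kb, negative upstream) and fold enrichment (parent upward, ΔSRR2–18 downward). Filled points are shared and open points are in 1 list alone. The shared points of *Sox4* and *Sox12* lie within 8.2 kb of the TSS, and 13 of the 20 open points belong to *Sox11*.

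Unshared intervals were more common beyond 10 kb from the TSS, as they were over the whole lists. All 6 parent and 5 ΔSRR2–18 intervals of *Sox12* lay within 10 kb, so the farther ones are of *Sox4* and *Sox11*. Up to 10 kb from the TSS, 4 of 13 parent intervals were parent-only (30.8%), the same share as over all 27291 parent intervals at that distance from a protein-coding TSS (30.8%). None of the 9 ΔSRR2–18 intervals within 10 kb was deletion-only, against 38.6% of all 30880 such intervals. Between 10 and 50 kb, 6 of 7 parent intervals (85.7%) and 10 of 11 ΔSRR2–18 intervals (90.9%) were found in one list alone, against 59.1% and 66.3% of all intervals at that distance. All 10 deletion-only intervals therefore lay more than 10 kb from the TSS, as did 6 of the 10 parent-only intervals. These are counts from 1 pooled list per genotype, with no test.

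**Figure D2:**
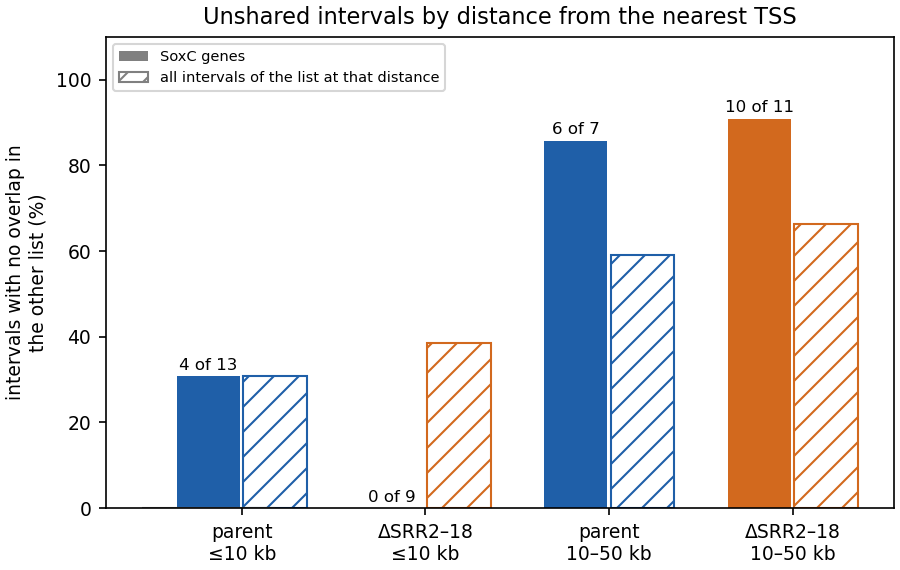
Percentage of intervals with no overlap in the other list, up to 10 kb and from 10 to 50 kb from the nearest protein-coding TSS. Filled bars are the SoxC genes with their counts, and hatched bars are all intervals of the same list and distance. The SoxC bars are at 30.8% and 0% near the TSS and at 85.7% and 90.9% farther away.

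At the *Sox4* promoter, the parent interval (chr13:28952018-28954055) held 6 summits, and the strongest, 13 bp downstream of the TSS in the 5′ UTR, had 3346 reads and a fold enrichment of 6.57. The ΔSRR2–18 interval (chr13:28952585-28954053) held 4 summits, the strongest 9 bp upstream of the TSS with 1357 reads and a fold enrichment of 7.48. At equal depth, 1357 ΔSRR2–18 reads stood against 1693 parent reads, a ratio of 0.801 (95% interval 0.752 to 0.853, counting error only). The promoter ranked in the top 20.6% of parent and 18.8% of ΔSRR2–18 intervals by −log10 p, but only in the top 70.6% and 70.1% by fold enrichment. Its reads were lower in ΔSRR2–18 NSPCs, while its fold enrichment was higher, and the background around it was 0.701 times that of the parent.

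At the *Sox11* promoter, the parent interval (chr12:27341341-27343710) held 7 summits and the ΔSRR2–18 interval (chr12:27341898-27343789) held 6. The strongest summits lay 180 bp and 190 bp upstream of the GENCODE TSS, close to the RefSeq start 144 bp upstream of it, with 4370 parent and 1418 ΔSRR2–18 reads. At equal depth the parent had 2212 reads, which gave a ratio of 0.641 (0.604 to 0.681). The background fell to 0.638 times the parent value, so that the fold enrichments were alike at 8.96 and 8.97. By −log10 p the promoter ranked in the top 11.6% of the parent and 14.9% of the ΔSRR2–18 list, the highest rank of the 3 genes' TSS intervals in either list apart from the upstream interval of *Sox12*. By fold enrichment it was in the top 54.6% and 59.2%. A parent summit 417 bp upstream, with 2646 reads, had no ΔSRR2–18 summit within 50 bp.

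*Sox12* had 3 intervals within 1 kb of a TSS in each list. The strongest by reads lay about 0.9 kb upstream (chr2:152398670-152399485 in the parent list) with 6711 parent reads, 3397 at equal depth, and 2931 ΔSRR2–18 reads, which is in the top 1.13% of the parent and 0.819% of the ΔSRR2–18 list by reads. Its ratio was 0.863 (0.826 to 0.901). Its fold enrichment went the other way, from 7.99 for parent to 10.2 for ΔSRR2–18 NSPCs, in the top 60.5% and 51.5% of the lists. By −log10 p it was in the top 6.09% and 2.79%. The interval over the TSS itself (chr2:152397618-152398405), whose summit lay 144 bp and 138 bp upstream and held the octamer shown above within its window, had 4310 and 1191 reads and a ratio of 0.546 (0.512 to 0.582). The interval in the coding exon, about 0.7 kb downstream, had 2678 and 566 reads, and its ratio of 0.418 (0.381 to 0.457) was the lowest of the 10 shared intervals. Its fold enrichment was 3.09 for parent and 1.92 for ΔSRR2–18 NSPCs, where it was in the top 95.5% by −log10 p and had an IDR score of 575, near the list's minimum of 540. Among these 3 intervals, the ratio therefore ran from 0.418 to 0.863. Their counting intervals did not overlap, but these hold no error between cultures, so whether the ratios differ was not tested.

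**Figure D3:**
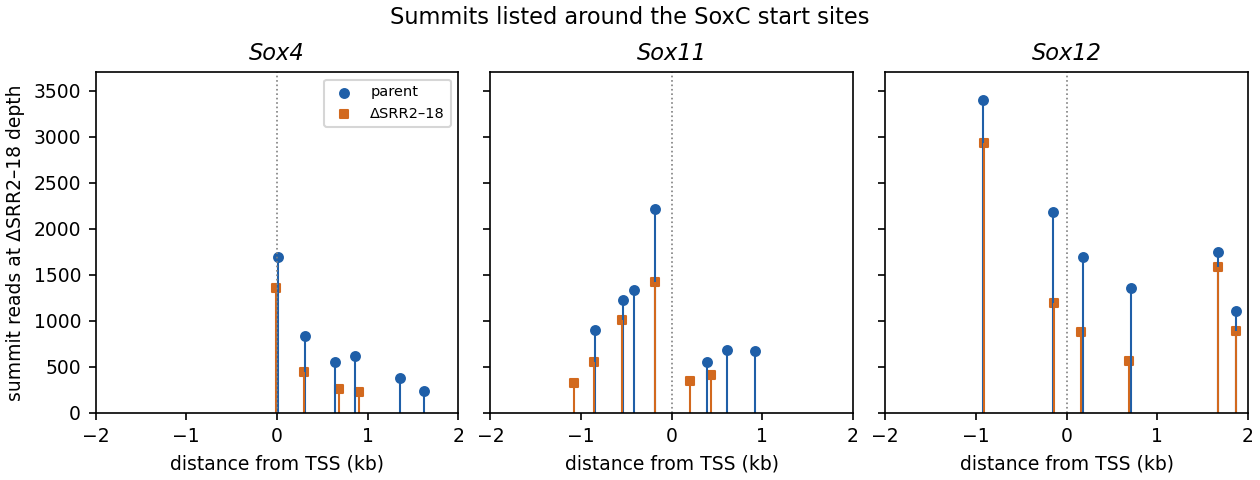
All summits listed within 2 kb of the TSS of each gene, by distance from the TSS (kb) and summit reads, with parent reads scaled to the ΔSRR2–18 depth. Of the parent summits in all intervals of a gene, 8 of 9 at *Sox12*, 7 of 14 at *Sox4* and 5 of 14 at *Sox11* had a ΔSRR2–18 summit within 50 bp.

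These promoter ratios are read against all promoters. Over 12364 shared pairs of intervals within 1 kb of a protein-coding TSS, the median ratio of reads was 0.723 with quartiles of 0.59 and 0.873. With that median, the *Sox4* promoter stood at 1.11 times and the *Sox11* promoter at 0.886 times the typical promoter, at percentiles 65.0 and 33.6 of the promoter pairs. The *Sox12* intervals stood at 1.19, 0.755 and 0.577 times, at percentiles 73.8, 18.6 and 6.71. So whether the *Sox4* promoter and the upstream *Sox12* interval were higher or lower in ΔSRR2–18 NSPCs depended on the reference, as both were below 1 by depth and above 1 against other promoters.

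The 5 shared intervals outside the promoters included both directions. The *Sox4* interval 4.7 kb upstream had 3140 parent reads, 1589 at equal depth, and 1595 ΔSRR2–18 reads, a ratio of 1.00 (0.945 to 1.07). Its neighbour 6.0 kb upstream had 2365 and 837 reads and a ratio of 0.699 (0.646 to 0.757). Of these neighbours, only the farther one was lower at equal depth. At *Sox12*, the interval 8.2 kb upstream (chr2:152405801-152406626) had the highest fold enrichment of all shared SoxC intervals, 16.9 for parent and 20.7 for ΔSRR2–18 NSPCs, with 5192 and 2010 reads and a ratio of 0.765. It lies about as far from the TSS of *Zcchc3* (8.77 kb) as from that of *Sox12* (8.19 kb). The interval in the 3′ UTR of *Sox12*, 1.7 kb downstream of the TSS, had a ratio of 0.907. Its fold enrichment was higher in ΔSRR2–18 NSPCs, at 5.37 against 3.98 in the parent.

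The *Sox11* interval 48.1 kb downstream of the TSS was the one shared interval beyond 10 kb. Its strongest summits had 501 parent reads (chr12:27293915-27294894) and 504 ΔSRR2–18 reads (chr12:27293789-27294987), which at equal depth is a ratio of 1.99 (1.76 to 2.25). Fold enrichments were nearly equal, at 12.6 and 12.4, since the background at equal depth was 2.02 times that of the parent. The parent background there, 38.8 reads, was the lowest of its list, whereas the ΔSRR2–18 background of 39.7 was above the 19.7 of its list. The 2.02 thus sets a list minimum against a higher local value. Over 26558 distal pairs the median ratio was 0.996, and 78.4% had a lower ratio than this interval. By −log10 p it moved from the top 52.8% of the parent list to the top 35.9% of the ΔSRR2–18 list.

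**Figure D4:**
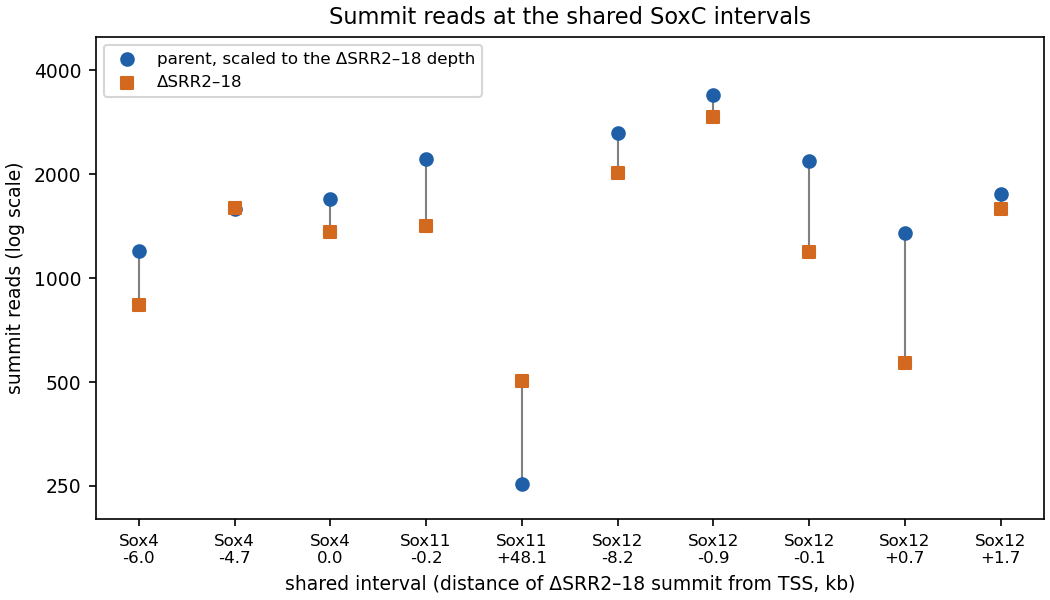
Summit reads (log scale) at the 10 shared intervals, with parent reads scaled to the ΔSRR2–18 depth (circles) and ΔSRR2–18 reads (squares). The ΔSRR2–18 value is lower at 8 intervals, equal within counting error at *Sox4* −4.7 kb, and higher at *Sox11* +48.1 kb.

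Over the 10 shared SoxC intervals, 2 had more reads in ΔSRR2–18 NSPCs at equal depth and 8 had fewer, against 38.8% of all 39098 shared pairs with more. By fold enrichment, 6 were higher in the ΔSRR2–18 list and 4 were lower, against 50.0% of all pairs. The median ratio of reads was 0.783 over the SoxC intervals and 0.848 over all pairs. Promoter pairs made up a larger part of the SoxC intervals than of all pairs, so these references are not matched. More reads in ΔSRR2–18 NSPCs were found at 15.6% of all promoter pairs and 49.7% of all distal pairs, with median ratios of 0.723 and 0.996.

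**Figure D5:**
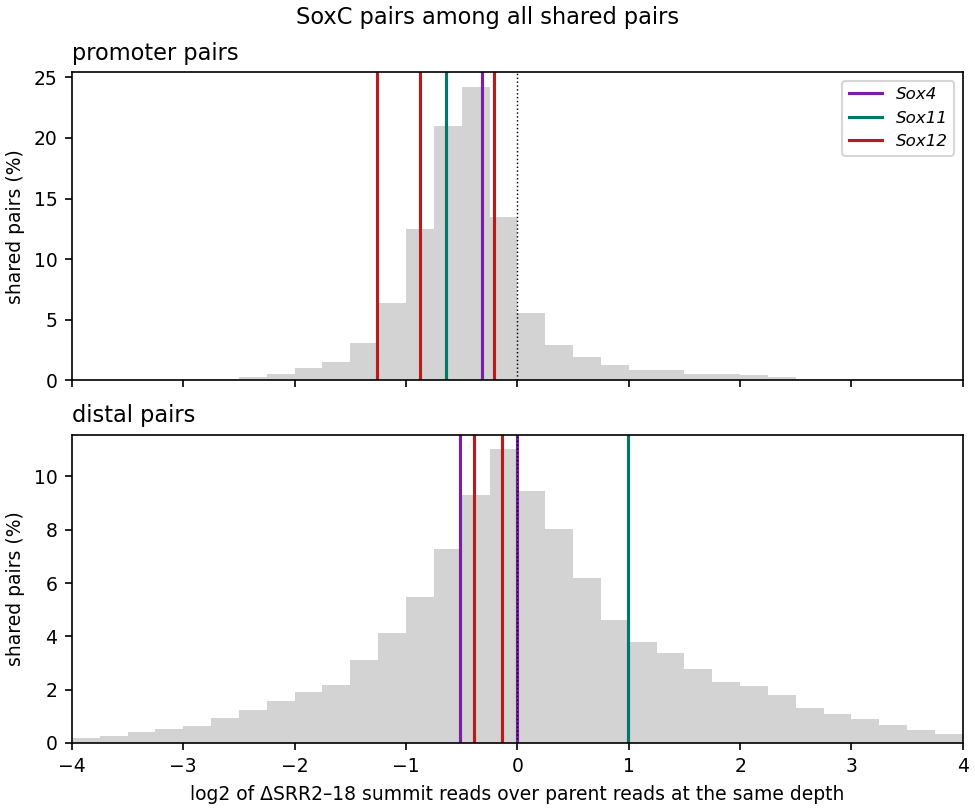
Distribution of the log2 ratio of ΔSRR2–18 to parent summit reads at equal depth over 12364 promoter pairs and 26558 distal pairs (grey bars, % of pairs), with the SoxC pairs as vertical lines. All promoter lines lie below 0, as does most of the promoter distribution, whose median ratio is 0.723.

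The parent-only intervals of *Sox4* included 3 with fold enrichments above 15. The strongest, 11.4 kb downstream of the TSS (chr13:28941880-28942627), had 2054 reads and a fold enrichment of 18.9, in the top 12.8% of the parent list by that measure and in the top 17.5% by −log10 p. Its summit lay 0.769 kb from the start of *Gm26735*, a long noncoding RNA gene that overlaps *Sox4* on the other strand. At the ΔSRR2–18 depth it would have 1040 reads and a −log10 p of 906, which would place it in the top 12.7% of the ΔSRR2–18 list by −log10 p, where no interval overlapped it. The intervals 20.1 kb downstream and 35.2 kb upstream had 1148 and 968 reads, with fold enrichments of 17.0 and 15.4. The fourth, 2.8 kb downstream in the 3′ UTR, was weaker, with a fold enrichment of 3.39.

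At *Sox11*, the strongest parent-only interval lay 14.9 kb upstream (chr12:27356937-27357909), with 2117 reads and a fold enrichment of 16.3. At the ΔSRR2–18 depth it would have 1071 reads and rank in the top 13.5% of that list by −log10 p. A further interval 30.3 kb downstream had 1034 reads and a fold enrichment of 14.9. The other 3 were weak: the one 19.0 kb downstream had 208 reads, and those 3.0 and 3.5 kb downstream, in the 3′ UTR, had fold enrichments of 2.01 and 1.94 and were not in the parent optimal list, the authors' second and longer set. When a −log10 p of 50 or more at equal depth was required in both lists, 2 of the 5 *Sox11* intervals stayed parent-only. The single parent-only interval of *Sox12*, 5.0 kb downstream (chr2:152392871-152393102), had 958 reads and a fold enrichment of 2.25, and the optimal ΔSRR2–18 list did overlap it.

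The deletion-only intervals were concentrated at *Sox11*, with 8, and lay on both sides of the gene. Of these, 5 stood between 30.1 and 49.3 kb upstream and 3 between 14.0 and 31.7 kb downstream, all intergenic. The strongest, 47.9 kb upstream (chr12:27390190-27391198), had 690 reads and a fold enrichment of 13.1, in the top 26.6% of the ΔSRR2–18 list by −log10 p. The other 7 had 141 to 346 reads and fold enrichments of 5.16 to 9.63. Of the 17643 genes with an interval, 3.63% had 8 or more deletion-only intervals and the median was 1. For parent-only intervals, 7.18% had the 5 of *Sox11* or more, also with a median of 1. These ranks depend on gene spacing: with no other coding TSS within 873 kb, *Sox11* keeps its whole window, unlike genes with close neighbours. Without the limit on distance, *Sox11* had 36 parent and 57 ΔSRR2–18 intervals out to 599 kb, of which 10 were shared, 26 parent-only and 47 deletion-only. Over the whole lists, 52.3% of parent and 63.1% of ΔSRR2–18 intervals were unshared.

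*Sox4* had 2 deletion-only intervals, both downstream. The stronger, 35.7 kb from the TSS (chr13:28917039-28918283), had 717 reads, the most of all deletion-only SoxC intervals, and a fold enrichment of 15.0. The other, 21.8 kb downstream (chr13:28931316-28932168), had 272 reads and a fold enrichment of 10.2. It lay next to the parent-only interval 20.1 kb downstream without overlapping it. Without the limit on distance, *Sox4* had 44 parent and 43 ΔSRR2–18 intervals out to 445 kb. Of these, 28 were parent-only and 27 deletion-only, against shares of 52.3% and 63.1% over the whole lists. *Sox12* kept its 6 and 5 intervals, as neighbouring starts at 17.0 and 21.4 kb bound what the nearest-TSS rule can assign to it. When genes of every type were allowed as the nearest TSS, *Sox4* kept 1 parent-only and 0 deletion-only intervals, since noncoding genes such as *Gm26735* took the others.

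The limit of 50 kb passes between similar intervals. Just inside it lay the *Sox11* deletion-only interval 49.3 kb upstream, with 235 reads and a fold enrichment of 5.16. Just outside lay deletion-only intervals 52.9 kb downstream of *Sox11* (261 reads, fold enrichment 6.98) and 53.0 kb upstream of *Sox4* (159 reads, 7.74). The nearest outside in the parent list was parent-only, 61.3 kb upstream of *Sox4*, with 514 reads.

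At equal depth, parent-only summits had a median of 512 reads (105 to 1071), or 1013 as listed, and deletion-only summits a median of 216.5 (141 to 717). Over all intervals of the same classes the order was the opposite, with medians of 241 reads at equal depth (476 as listed) and 289. These reads include the local background. It ran from 38.8 to 493 reads, as listed, at the parent-only SoxC summits and from 19.7 to 51.9 at the deletion-only ones. The highest was at the *Sox11* intervals 3.0 and 3.5 kb downstream, with fold enrichments of 2.01 and 1.94. The order by reads is thus not one of enrichment alone. Median fold enrichments of the SoxC summits were 10.1 and 9.27, against 7.93 and 9.58 over all intervals of these classes. GC content within 100 bp of the summit had a median of 53.5% at parent-only and 47.3% at deletion-only SoxC intervals, close to 50.2% and 45.8% over all.

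An AP-1 consensus lay within 100 bp of the summit at 5 of the 10 deletion-only intervals, namely 2 of 2 at *Sox4* and 3 of 8 at *Sox11*, as in the sequences above and at the interval 14.0 kb downstream of *Sox11*. No parent-only and no shared SoxC interval held one. The shares over all intervals of the lists were 41.6% for deletion-only and 2.55% for parent-only intervals, and 7.96% (parent) and 12.8% (ΔSRR2–18) for shared intervals, so the deletion-only SoxC count was near the background of its class at this window. Within 50 bp of the summit, 2 of the 10 held the consensus, against 32.3% of all deletion-only intervals.

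The SOX consensus (AACAAAG or AACAATG) was at none of the 40 summits, against 14.6% of all parent-only, 8.33% of all deletion-only and 7.53% and 6.62% of all shared intervals. Shared intervals count nearly the same sequence once per list. Their median GC content at the SoxC genes was 65.2% (parent) and 63.7% (ΔSRR2–18), against 54.7% and 54.2% over all shared intervals, so the shares are not matched for GC. The octamer was at 1 of 10 parent-only intervals, the one 35.2 kb upstream of *Sox4*, which held 3 copies, 2 on one strand and 1 on the other. Of all parent-only intervals, 3.12% held the octamer and 20 of 43385 (0.0461%) held 3 or more copies. This interval was singled out after its sequence was seen. The octamer was also at the *Sox12* TSS interval in both lists. The TEAD consensus was at the shared *Sox11* interval 48.1 kb downstream in both lists, at 2 deletion-only intervals (44.3 kb upstream of *Sox11* and 35.7 kb downstream of *Sox4*) and, in the ΔSRR2–18 list, at the *Sox12* interval 8.2 kb upstream. It was at 9.43% of all deletion-only intervals and at 5.48% (parent) and 6.02% (ΔSRR2–18) of all shared intervals. The palindromic NFI consensus was at none.

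Other *Sox* genes and genes of neuronal differentiation were counted by the same rule. The SoxB genes *Sox1*, *Sox3*, *Sox14* and *Sox21* together had 11 parent-only and 3 deletion-only intervals, and the SoxD and SoxE genes had 34 and 18. As shares of their own lists these were 50.0% and 21.4% at the SoxB genes and 69.4% and 56.2% at the SoxD and SoxE genes, beside 50.0% and 50.0% at the SoxC genes. *Sox5* and *Sox6*, which encode SoxD factors, had the most parent-only intervals, with 8 each. *Sox5* and *Sox9*, a SoxE gene of glial development, had the most deletion-only intervals, with 5 each, fewer than *Sox11*. The 12 neuronal genes had 34 parent-only and 53 deletion-only intervals, which are 54.0% and 63.9% of their intervals and close to the shares over the whole lists. *Map2*, which encodes a dendritic microtubule protein, had 17 of each. *Dcx* and *Ncam1* had 4 parent-only intervals each, and *Ncam1* and *Nefl*, a neurofilament gene, had 8 deletion-only intervals each. *Tubb3* and *Tead2*, genes described as SoxC targets, had 1 and 0 parent-only and 0 deletion-only intervals.

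Genes whose counts of shared, parent-only and deletion-only intervals were most like those of a SoxC gene were found by Euclidean distance over the 3 counts. *Rbm19*, *Mkrn1* and *Rasgef1c* had the counts of *Sox4* (3, 4 and 2), as 31 genes did. *Rgs8* was the 1 gene with the counts of *Sox11* (2, 5 and 8), and *Lrig3* and *Stim2* came next at a distance of 1. *Spc24*, *Sin3a* and *Tut7* had those of *Sox12* (5, 1 and 0), among 10 genes.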

How the data were processed

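ATAC-seq reads of 3 parent and 3 ΔSRR2–18 NSPC cultures were processed by the authors with the ENCODE ATAC-seq pipeline (build mm10, with deepTools also named in the submitters' processing notes). Peaks were called with MACS2 and filtered by IDR, pooled per genotype. The deposited lists give an IDR score, a fold enrichment (ratio over local background), a −log10 p-value and a summit offset, and 1 further column per list, the −log10 q, was not used. Both alleles are combined in the lists, although Cast reads can be lost where they differ from mm10. Depth per culture is not given by pooled lists.

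Here, the conservative lists were used, with distinct intervals taking the values of their strongest summit. Reads and background were solved from fold enrichment and −log10 p, with whole reads (within 0.05) for 99.9993% of parent and 100% of ΔSRR2–18 summits. TSSs were from GENCODE M21 basic (21951 protein-coding genes) and promoter sequences from RefSeq (GRCm38.p6). Python 3.11.15, pandas 2.3.3 and pysam 0.24.0 were used, and read recovery, overlaps (against bedtools 2.31.1) and nearest TSSs were tested on simulated data. Ratio intervals are 95% and cover counting error only. The genes, lists and motifs were chosen with earlier results of these data known. In full were described the TSS intervals and, per class and gene, the interval with the highest fold enrichment and that with the most reads. Of other *Sox* and neuronal genes, the 2 with the most parent-only and deletion-only intervals (ties included) were named, and the 3 genes most like each SoxC gene in counts. *Tubb3* and *Tead2* and the promoter motifs were added after their values were seen.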

Additional observations from a re-analysis of the deposited data

How the results depend on the processing

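The totals of 10 parent-only and 10 deletion-only intervals stayed within 1.5 times under the optimal lists, an IDR score of at least 830, merged intervals, 50% reciprocal overlap, summits inside the other list, absence from the optimal list, equal list length, the nearest TSS of any gene type, and −log10 p of at least 20, 50 or 100 at equal depth. The gene distance moved them: with 10 kb there were 4 parent-only and 0 deletion-only intervals, with 100 kb 16 parent-only, and with any distance 55 and 74. In a setting chosen after seeing the data, a −log10 p of at least 100 at equal depth with absence judged against the whole other list, 6 were parent-only. By gene, *Sox12* had 4 parent-only intervals at equal list length and *Sox11* had 3 under the optimal lists. With the median of shared promoter pairs set to 1, the ratios of reads were 0.886 at *Sox11* and 0.755 at the *Sox12* TSS, and reversed to 1.11 at *Sox4* and 1.19 at the *Sox12* interval 0.9 kb upstream, by construction of the scale. The summit with the most reads gave the same ratios.

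No paired analysis was possible because each list pools its cultures, and for the same reason no culture was left out. As to depth, 7 of the 10 parent-only and all 10 deletion-only intervals reached a −log10 p of 50 at equal depth, and 6 and 8 reached 100. With both lists filtered, 8 and 7 were counted as parent-only, because the ΔSRR2–18 partner of 1 shared *Sox12* interval was removed.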
